A study of Mus musculus with 4 samples.

Results

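The nuclear-encoded subunits of the mitochondrial respiratory chain were taken as every gene whose symbol matched the naming of complex I (Nduf followed by a, b, c, s or v and a digit), complex II (Sdha to Sdhd), complex III (Uqcr), complex IV (Cox4 to Cox8) or complex V, the ATP synthase (Atp5). Of 90 matching symbols, 2 ending in -ps and 5 ending in -ps with a number were left out as pseudogene copies. The remaining 83 genes of 30028 in the deposited gene list comprised 37 of complex I, 4 of complex II, 8 of complex III, 18 of complex IV and 16 of complex V. At least 1 unique molecular identifier (UMI, a tag that marks 1 captured mRNA molecule) was counted for 81 of them in the wild-type normoxia library, for 83 in the knockout normoxia and wild-type HySu libraries, and for 82 in the knockout HySu library. Atp5s, named for coupling factor B, matched by its symbol and is not a structural subunit of the ATP synthase. Ndufa4 and Ndufa4l2 were counted with complex I by symbol, although Ndufa4 is now regarded as a subunit of complex IV.

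Single-cell RNA sequencing had been performed on mouse lung in 4 groups with 1 library each, and every library pooled the cells of 5 mice aged 11 weeks. The groups were wild type in normoxia (NW), FUNDC1-KO in normoxia (NK), wild type under HySu (HSW) and FUNDC1-KO under HySu (HSK). HySu combines hypoxia with SU5416, an inhibitor of the VEGF receptor, given in 3 weekly doses as a model of pulmonary hypertension. Mice kept in normoxia received the vehicle. FUNDC1 is a receptor of the outer mitochondrial membrane that marks mitochondria for removal by autophagy. The series title speaks of endothelial FUNDC1, and the sample labels name no promoter, Cre line or batch. Fundc1 had 2073 UMIs over all kept cells of the NW library, 43 of NK, 1462 of HSW and 9 of HSK. The same pattern was present outside the endothelium: Fundc1 in alveolar macrophages was at 51.1, 1.03, 52.1 and 0.130 UMIs per 1000000 in the same order.

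The respiratory chain passes electrons from NADH (complex I) and succinate (complex II) through ubiquinone to complex III, cytochrome c and complex IV, which reduces oxygen. Complexes I, III and IV pump protons across the inner membrane, and complex V uses that gradient to make ATP. Most subunits are encoded in the nucleus, a small catalytic set is encoded in mitochondrial DNA, and several nuclear subunits of complex IV exist as tissue isoforms best known from heart, skeletal muscle, testis or lung.

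Libraries differed in depth before any comparison. The matrices held 7649, 9164, 5041 and 4128 cells, with a median of 6311, 5355, 7185.5 and 7845.5 UMIs per cell and a lowest value of 3775, 3182, 4230 and 4726. Cells with markers of more than 1 lineage were removed, at 23.6% of NW, 28.2% of NK, 17.7% of HSW and 10.5% of HSK. The kept cells gave 20 classes named from marker genes, of which 11 had at least 20 cells in every library and covered the comparisons between classes. Each class name below stands for cells with that marker profile ("AT2-like" and so on), and the clusters left unnamed are not described. Libraries shared few barcodes: 250 occurred in 2 libraries and 2 in 3 libraries. A level is given as CPM, the UMIs of a gene per 1000000 UMIs of that class in that library. Where 4 values follow each other, they stand in the order NW, NK, HSW, HSK. With 1 library per group no variation between mice could be measured, so no test of a difference between groups was possible. Every interval printed is an exact 95% interval that covers counting error only.

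Complexes differed in how many transcripts they contributed. Complex I gave a summed level of 7129 CPM over all kept cells (mean of the 4 libraries), complex IV 6667, complex V 5091, complex III 2416 and complex II 502. These sums hold only genes that match the symbol rule. Ndufab1 of complex I, at 116 CPM, and Cyc1 of complex III, at 97.9 CPM, do not match it and are left out. Within complex IV, Cox4i1, the largest nuclear-encoded subunit, had the highest level of all members at 1219 CPM, and Cox8c, a testis isoform, the lowest with 1 UMI. In complex V the levels ran from 687 CPM for Atp5e, the epsilon subunit of the central stalk, to 5.63 CPM for Atp5s. Complex III ranged from Uqcrh, the hinge protein, at 534 CPM to Uqcrc2, a core protein, at 103 CPM. Complex I ranged from Ndufa2, an accessory subunit of its matrix arm, at 429 CPM to Ndufa4l2 at 0.940 CPM. The 4 subunits of complex II lay close together, from Sdhc, a membrane anchor, at 99.7 CPM to Sdhb, the iron-sulphur subunit, at 145 CPM.

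The share of each complex in the UMIs of all 83 genes varied little between the 11 classes. Complex I held a median of 33.0%, from 30.3% in T and NK cells to 37.2% in alveolar fibroblasts. Complex IV held 29.1%, from 26.6% in adventitial fibroblasts to 32.2% in alveolar macrophages. Complex V held 23.3%, from 21.2% in ciliated cells to 27.1% in T and NK cells. Complex III held 10.9% and complex II 2.21%, the latter reaching 2.92% in ciliated cells against 1.81% in cDC1, the cross-presenting dendritic cells.

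**Figure D1:**
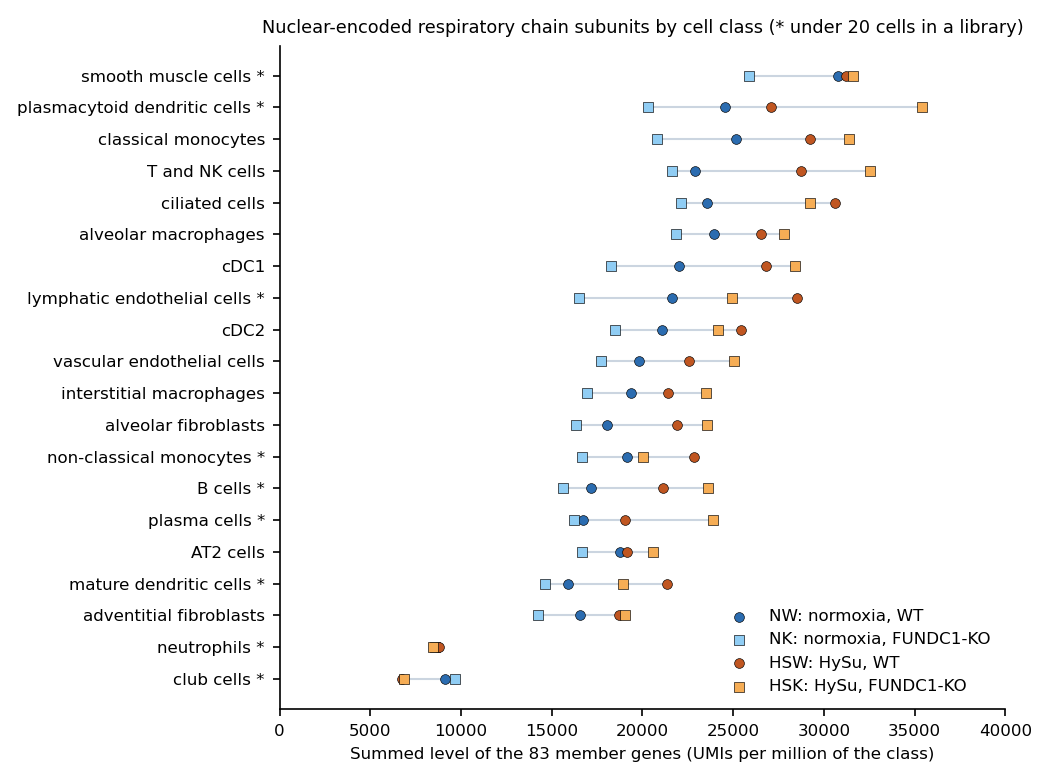
Summed level of the 83 genes (CPM, horizontal axis) in each cell class and library, 1 symbol per library; an asterisk marks classes with under 20 cells in a library. The NK symbol lies left of the NW symbol and both lie left of the HySu symbols in each of the 11 larger classes.

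Classes differed in the summed level of the 83 genes. Among the 11 larger classes, means over the libraries ran from 17134 CPM in adventitial fibroblasts to 26641 CPM in classical monocytes, a 1.55-fold range. Classical monocytes were the highest in NW only, ciliated cells were in NK and HSW, and T and NK cells in HSK. AT2 cells, which make surfactant and devote much of their mRNA to it, were at 18791 CPM, vascular endothelial cells at 21284, alveolar macrophages at 25036, ciliated cells at 26393 and T and NK cells at 26452. Outside these classes the range was wider. Smooth muscle cells reached 29884 CPM in 53 cells, neutrophils 8627 CPM in 66 cells and club cells, the secretory cells of the airway, 8093 CPM in 62 cells. A few marker genes can fill much of the mRNA of the last 2 classes. In the cluster where each list was highest before mixed cells were removed, club markers took a median share of 0.646 of a cell's UMIs and neutrophil markers 0.342. Clusters of 274 and 215 cells nearest to club cells stayed unnamed. The part of these marker shares in the low sums was not tested. Classes were formed from the same cells, with the 83 genes and the mitochondrially encoded genes kept out of the clustering, so these differences are a description.

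Several members stood above the median class in some classes. Ndufc2, a membrane-arm accessory subunit of complex I, was at 651, 823, 911 and 956 CPM in ciliated cells, a mean 3.85 times the median class. Sdhd, a membrane anchor of complex II, was 2.53 times the median class in the same cells, and Atp5s was 6.47 times it on 36 UMIs. Ciliated cells had the highest mean level of these 3 genes among the larger classes. Ndufa6, an accessory subunit of the matrix arm, was 1.84 times the median class in cDC1 and 1.87 times in cDC2. Ndufs8, an iron-sulphur core subunit, was 1.90 times it in B cells, 1.69 times in classical monocytes and 1.51 times in plasma cells, and Ndufa1, a membrane-arm accessory subunit, was 1.81 times it in plasma cells. Cox5b, the zinc-binding subunit of complex IV, was 1.65 times it in T and NK cells. Atp5g3, which encodes the c subunit of the ATP synthase ring, was 1.84 times it in alveolar macrophages.

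Tissue isoforms of complex IV differed widely between classes. The promoters of Cox6b1 and Cox6b2 and of Cox8a and Cox8b are shown because the share of the second gene of each pair varied from class to class. Each run is 300 bases from RefSeq (build GRCm38.p6), from 250 bases before to 50 bases after the start of transcription, 5′ to 3′ on the strand of the gene, with matches to the ETS motif CCGGAAG on either strand in capitals.
Cox6b1 (chr7:30626065-30626364, minus strand): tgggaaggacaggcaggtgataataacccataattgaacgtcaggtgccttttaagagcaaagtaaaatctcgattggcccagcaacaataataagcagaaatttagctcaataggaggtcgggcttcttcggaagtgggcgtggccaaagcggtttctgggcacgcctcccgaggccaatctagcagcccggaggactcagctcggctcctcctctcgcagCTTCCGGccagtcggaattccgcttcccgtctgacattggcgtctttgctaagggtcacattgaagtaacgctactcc
Cox6b2 (chr7:4753045-4753344, minus strand): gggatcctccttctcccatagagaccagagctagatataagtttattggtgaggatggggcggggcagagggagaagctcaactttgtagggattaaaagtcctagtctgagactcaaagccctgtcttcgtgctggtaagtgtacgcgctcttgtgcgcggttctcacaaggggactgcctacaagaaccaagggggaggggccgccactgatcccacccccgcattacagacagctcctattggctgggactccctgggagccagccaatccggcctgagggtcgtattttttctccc
Cox8a (chr19:7217567-7217866, minus strand): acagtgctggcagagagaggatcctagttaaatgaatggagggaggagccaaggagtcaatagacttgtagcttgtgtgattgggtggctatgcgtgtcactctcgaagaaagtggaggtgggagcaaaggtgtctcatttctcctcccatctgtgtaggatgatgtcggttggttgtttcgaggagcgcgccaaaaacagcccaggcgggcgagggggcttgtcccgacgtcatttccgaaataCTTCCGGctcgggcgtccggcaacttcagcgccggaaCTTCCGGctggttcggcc
Cox8b (chr7:140900397-140900696, minus strand): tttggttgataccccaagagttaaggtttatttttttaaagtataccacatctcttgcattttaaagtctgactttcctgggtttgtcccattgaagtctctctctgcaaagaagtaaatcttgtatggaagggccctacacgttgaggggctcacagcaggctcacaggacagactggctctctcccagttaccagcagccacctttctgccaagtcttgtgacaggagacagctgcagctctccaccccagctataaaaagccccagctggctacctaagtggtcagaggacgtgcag
Cox6b1 held 1 ETS match and 17 CG dinucleotides, and Cox8a 2 and 19. Cox6b2 and Cox8b held no ETS match, and CG dinucleotides numbered 10 in Cox6b2 and 2 in Cox8b, which also held the TATA motif TATAAA. The contrast in ETS matches was absent from a further pair that is not printed. Neither the common isoform Cox7a2 nor the tissue isoform Cox7a1 held an ETS match, and they held 20 and 7 CG dinucleotides.

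RefSeq promoters were matched for 68 of the 83 genes. On either strand, the motif of NRF1, GCGCA and GCGC with any 1 base between them, occurred in 23.5% of them, against 4.55% of 32744 other promoters and 10.0% of the 10524 that belong to other genes with at least 200 UMIs here. Motifs were allowed to overlap each other. ETS (CCGGAAG) occurred in 22.1% against 8.83% and 17.8%, and YY1 (AANATGGCG) in 11.8% against 2.35% and 5.09%. NRF1, ETS-family factors such as GABPA, and YY1 are textbook regulators of respiratory genes. The GC box GGGCGG occurred in 41.2%, 35.6% and 63.3%, TATAAA in 10.3%, 13.6% and 7.53%, and the hypoxia response core ACGTG in 26.5%, 19.6% and 25.2%. The E-box CANNTG occurred in 70.6%, 72.3% and 63.8%, and the muscle motif of MEF2, CTA and TAG with any 4 bases between them, in 1.47%, 3.69% and 2.86%. A match is a run of letters, and none of these factors' binding was measured.

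Cox6a2, the heart and muscle isoform of subunit VIa (GRCm38 chromosome 7, 128205435 to 128206387, minus strand), was present in AT2 cells and plasmacytoid dendritic cells. In AT2 cells it was at 254, 195, 245 and 260.1 CPM, and it gave 30.1%, 27.5%, 29.4% and 29.8% of the Cox6a1 and Cox6a2 UMIs. The 4 libraries were thus close to each other, with a mean of 29.2%. Plasmacytoid dendritic cells, which secrete type I interferon, had 1661, 1051, 2367 and 2252 CPM on 478 UMIs in 69 cells (17, 39, 11 and 2). There it was the major isoform, at 70.2%, 63.9%, 75.4% and 53.2% of the pair, the last with a 95% interval of 38.1% to 67.9%.
At least 1 Cox6a2 UMI was found in 54.5% of AT2 cells and 82.6% of plasmacytoid dendritic cells, at a median of 5936 and 4537 UMIs per cell. In vascular endothelial cells, with a median of 5201 UMIs per cell, 2.19% had one, and in alveolar macrophages, with 10517, 3.33% did. Free RNA from AT2 cells can give such UMIs, and the AT2 marker Sftpc (surfactant protein C) was used to gauge it: there were 0.897 Cox6a2 UMIs per 1000 Sftpc UMIs in AT2 cells, 1.64 in alveolar macrophages, 1.69 in vascular endothelial cells and 566 in plasmacytoid dendritic cells. Ratios of 5.60 in cDC1, 6.54 in cDC2 and 4.24 in interstitial macrophages rested on 34, 19 and 26 UMIs. Of these, 11, 16 and 16 came from 1 cell of each class. Cox6a2 overlaps Itgad on the opposite strand, and whether the counting used strand is not given in the sources used here. Itgad was at 0.289 CPM in AT2 cells (1, 1, 3 and 4 UMIs) and at 8.65 CPM in plasmacytoid dendritic cells, where its 3 UMIs all came from NW (34.6 CPM). Alveolar macrophages, where Itgad was at 8.07 CPM, had a Cox6a2 share of 0.424% in NW.

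**Figure D2:**
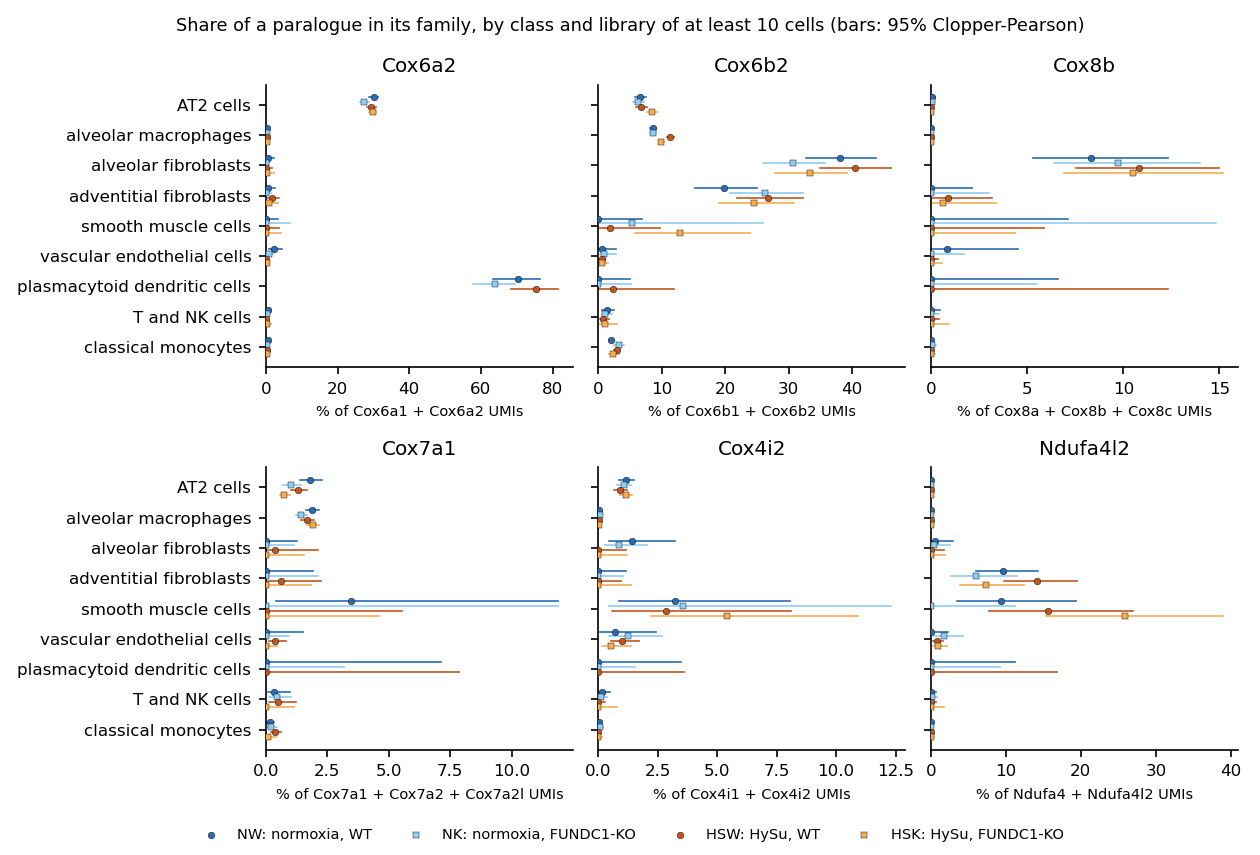
Share of each tissue isoform in the UMIs of its paralogue family (percent, horizontal axis) by class, for class and library combinations of at least 10 cells; symbols are libraries and bars exact 95% intervals. Cox6a2 lies between 27.5% and 30.1% in AT2 cells, Cox6b2 between 30.7% and 40.5% in alveolar fibroblasts, and Cox8b between 8.33% and 10.8% in the same fibroblasts.

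Cox6b2, the testis isoform of subunit VIb (chromosome 7, 4751792 to 4753094, minus strand), was highest in fibroblasts. Alveolar fibroblasts had 233, 163, 366 and 311 CPM, or 38.1%, 30.7%, 40.5% and 33.3% of the Cox6b1 and Cox6b2 UMIs. Adventitial fibroblasts had 114, 122, 161 and 156 CPM, and a mean share of 24.3%. Both HySu libraries lay above both normoxia libraries in level in the 2 classes, whereas the shares overlapped. The 3 clusters of alveolar fibroblasts were split by treatment. One held 49, 62, 14 and 8 cells at 195 CPM of Cox6b2, another 42, 81, 1 and 2 cells at 208 CPM, and the last 10, 10, 45 and 38 cells at 342 CPM. The cluster that held most HySu cells thus had the highest level, and its part in the difference between libraries was not tested.
Alveolar macrophages followed with 76.8, 64.7, 121 and 115 CPM and shares of 8.65%, 8.64%, 11.3% and 9.93%, and AT2 cells had a mean share of 7.02%. In vascular endothelial cells 14 UMIs gave 0.518% to 0.943%. Of alveolar fibroblasts 53.3% had a Cox6b2 UMI at a median of 4815.5 UMIs per cell, against 2.19% of vascular endothelial cells at 5201. No annotated gene overlaps Cox6b2, and its neighbour Fam71e2, whose nearest end lies 132 bases away on the same strand, had 1 UMI in all kept cells.

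Cox8b, the heart, muscle and brown fat isoform of subunit VIII (chromosome 7, 140898945 to 140900446, minus strand), had 140 UMIs in the kept cells, of which alveolar fibroblasts held 104, and 85 in the cells removed as mixed. In alveolar fibroblasts the level was 42.0, 36.3, 91.6 and 83.6 CPM. Its share of the Cox8 UMIs was 8.33%, 9.73%, 10.8% and 10.5%, so the shares lay within each other's intervals although the levels were higher in the HySu libraries. In the 3 clusters of alveolar fibroblasts, in the order given for Cox6b2, it was at 32.4, 48.9 and 91.5 CPM, again highest where most HySu cells lay. At least 1 UMI was found in 16.6% of alveolar fibroblasts, whose mean level was 63.4 CPM. Lymphatic endothelial cells had a similar level of 53.5 CPM and a UMI in 15.4% of 26 cells, on 8 UMIs, at a median of 5255 UMIs per cell. In alveolar macrophages 5 UMIs were counted, at 0 to 0.171 CPM per library, and the 0 in NW allows up to 0.193 CPM.

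Among the named classes, Ndufa4l2, the paralogue of Ndufa4 known as a target of hypoxia-inducible factors, was highest in smooth muscle cells and adventitial fibroblasts. Pericytes were not scored as a class, and 56 cells were marked as mixed by the pericyte markers. Higd1b, one of these markers, had 5 UMIs in smooth muscle cells, all in HSK. Whether pericytes lie among the smooth muscle cells was not tested. Adventitial fibroblasts had 43.5, 15.8, 59.5 and 35.4 CPM on 71 UMIs, and 9.59%, 6.02%, 14.1% and 7.32% of the Ndufa4 and Ndufa4l2 UMIs. The HySu and normoxia libraries overlapped in level and in share. In smooth muscle cells 31 UMIs came from 6 cells, with 76.8 CPM in NW, 0 in NK (which allows up to 59.5), 132 in HSW and 202 in HSK. Vascular endothelial cells had 17 UMIs in 12 cells (2.02%), at 4.28 CPM. Alveolar fibroblasts held 2 UMIs and alveolar macrophages 8. Ndufa4l2 overlaps Shmt2 on the opposite strand, and Shmt2 was at 20.7 CPM in adventitial fibroblasts, 26.4 in smooth muscle cells and 60.5 in T and NK cells.

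Cox4i2, the lung isoform of subunit IV, was rare beside Cox4i1. AT2 cells held 245 of its UMIs at 7.96, 7.76, 6.93 and 9.79 CPM, a mean share of 1.07% of the Cox4i1 and Cox4i2 UMIs. The highest mean share among the named classes, which include no pericytes, was 3.77% in smooth muscle cells, on 16 UMIs in 11 of 53 cells. Vascular endothelial cells had 25 UMIs. Cells removed as mixed held 388 Cox4i2 and 210 Ndufa4l2 UMIs, against 406 and 151 in the kept cells, so much of both genes lies outside the classes described here.
Cox7a1, the heart and muscle isoform of subunit VIIa, gave 1.73% of its family's UMIs in alveolar macrophages (12.9, 9.27, 14.4 and 16.2 CPM) and 1.22% in AT2 cells. A mean of 15.7% in mature dendritic cells rested on 13 UMIs, most of them in 1 cell of HSW.

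The Atp5g1, Atp5g2 and Atp5g3 genes encode the same mature c subunit of the ATP synthase behind different import sequences, and their mix differed between the libraries. Reads from the part that these 3 paralogues share may have been divided uncertainly. So may reads of Atp5l, Atp5k, Uqcrh and Atp5c1, which have annotated pseudogene copies. Over all kept cells Atp5g3 gave a mean of 64.1% of the 3, Atp5g1 30.5% and Atp5g2 5.41%. In alveolar macrophages Atp5g1 gave 27.3%, 21.2%, 34.3% and 33.1%, and Atp5g2 gave 3.43%, 2.84%, 5.66% and 7.24%. Atp5g3 went the other way, at 69.3%, 76.0%, 60.1% and 59.6%. Classical monocytes had the same order between treatments, with Atp5g3 at 63.5%, 70.8%, 54.0% and 48.9% and Atp5g2 at 3.50%, 3.85%, 5.37% and 9.59%. In both classes the HySu libraries lay apart from the normoxia libraries for all 3 genes, beyond counting error.

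Across the libraries, the summed level of the 83 genes had 1 order in most classes. NK was lowest, NW next, HSW above it and HSK highest in 9 of the 11 larger classes, and the HySu libraries changed places in the other 2, cDC2 and ciliated cells. The median UMIs per cell had the order of the 9 classes too, at 5355 in NK, 6311 in NW, 7185.5 in HSW and 7845.5 in HSK. The share of cells removed as mixed had the reverse order, from 28.2% in NK to 10.5% in HSK. With 1 library per group, depth and removal cannot be told apart from genotype and treatment. In alveolar macrophages the sums were 23943, 21864, 26520 and 27815 CPM. In AT2 cells they were 18762, 16665, 19169 and 20567, and in vascular endothelial cells 19836, 17697, 22548 and 25055. HSW was 1.11-fold NW in alveolar macrophages (95% interval 1.10 to 1.11), 1.02-fold in AT2 cells (1.01 to 1.03) and 1.14-fold in vascular endothelial cells. HSK was 1.27-fold (1.27 to 1.28), 1.23-fold (1.23 to 1.24) and 1.42-fold (1.38 to 1.45) NK. NK was 0.913-fold, 0.888-fold and 0.892-fold NW, and HSK 1.05-fold, 1.07-fold and 1.11-fold HSW. Comparisons that share a library are not independent of each other.
Other shares of the UMIs also had NK lowest in AT2 cells and vascular endothelial cells. The share of UMIs from mitochondrially encoded protein genes was 1.65%, 1.19%, 2.57% and 2.36% in AT2 cells and 0.917%, 0.661%, 1.78% and 1.73% in vascular endothelial cells. That from ribosomal protein genes was 7.08%, 6.50%, 10.2% and 10.8% in AT2 cells and 9.29%, 7.56%, 9.86% and 10.8% in vascular endothelial cells. In alveolar fibroblasts the ribosomal share was lowest in NW, at 7.96% against 8.24% in NK, and so it was in ciliated cells, at 4.71% against 4.83%. The part of these shares in the result was not tested.

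The 4 pairs of libraries were then compared gene by gene in 3 classes, with a member counted as higher or lower when its CPM was more than 25% above, or more than 20% below, that of the other library. Members with too few UMIs over the pair were not tested: 7 in alveolar macrophages and AT2 cells, and 9 in vascular endothelial cells (10 in NK against NW). Under HySu in the wild type (HSW against NW), 16 of 76 tested members were higher and 1 lower in alveolar macrophages, where 6.48% of all genes tested were higher and 38.7% lower. The members' median log2 ratio was 0.17 and that of all genes -0.24. Atp5g2 (60.0 against 35.8 CPM), Cox6b2 (121 against 76.8) and Atp5j (318 against 204), the F6 subunit of the peripheral stalk, had the highest ratios, at 1.68, 1.58 and 1.56. Sdha, the flavoprotein of complex II that oxidises succinate, had the lowest, 134 against 187 CPM or 0.716-fold (0.673 to 0.761), after Atp5a1, the alpha subunit of the ATP synthase (457 against 542). Ndufa10, a complex I accessory subunit, had 117 against 136.
AT2 cells had 7 higher and 6 lower of 76, where 5.33% of all genes were higher and 60.0% lower, and medians of -0.00 and -0.42. Atp5g2 was at 27.9 against 19.3 CPM. Cox7a2l, which links complexes III and IV in supercomplexes, was at 202 against 121 CPM (1.67-fold, 1.53 to 1.82) and Ndufa6 at 449 against 314. Ndufs1, the large iron-sulphur subunit of the NADH-oxidising arm, was lowest at 30.6 against 51.0 CPM (95% interval of the ratio 0.503 to 0.713), then Ndufv1, which binds NADH and FMN, at 42.4 against 61.6.
Vascular endothelial cells had 23 higher and 3 lower of 74, where 24.2% of all genes were higher and 34.9% lower, and medians of 0.17 and -0.10. Ndufa7 was at 536 against 279.8 CPM (1.92-fold, 1.55 to 2.39) and Sdha at 116 against 200.3 (0.581-fold, 0.439 to 0.777). The Atp5g2 ratio there rested on 3 UMIs in NW. NW had 55 of these cells, so ratios against it have wide intervals.

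Under HySu in the knockout (HSK against NK) the ratios were larger. Alveolar macrophages had 40 members higher and 4 lower of 76 (9.75% and 52.3% of all genes), with medians of 0.36 for members and -0.34 for all genes. Atp5g2 was at 79.5 against 27.1 CPM (2.93-fold, 2.63 to 3.26), Atp5j at 357 against 149 and Ndufs5, a complex I accessory subunit, at 92.7 against 41.4. Ndufs1 was at 57.6 against 93.0 CPM (0.619-fold) and Sdha at 139 against 224 (0.622-fold).
AT2 cells had 34 higher and 7 lower (9.38% and 66.0% of all genes), with medians of 0.26 and -0.56. Atp5j was at 335 against 164 CPM, Atp5g1 at 177 against 87.8 and Sdha at 67.4 against 121 (0.559-fold, 0.502 to 0.621).
Vascular endothelial cells had 48 higher and 2 lower of 74 (23.3% and 41.3% of all genes), with medians of 0.48 and -0.19. Ndufs8 was at 198 against 87.8 CPM (2.26-fold, 1.65 to 3.12) and Cox8a, the common isoform of subunit VIII, at 751 against 335 (2.24-fold, 1.91 to 2.63). Of 76 members, 15 were higher in both HySu pairs in alveolar macrophages and 1, Sdha, lower (4.59% and 30.8% of all genes tested in both). The counts were 7 and 4 in AT2 cells (4.32% and 54.3%), and 19 and 2 of 74 in vascular endothelial cells (10.6% and 19.5%). Atp5g1, Atp5g2, Atp5j, Cox7b, Cox8a and Ndufa6 were higher in both pairs in the 3 classes, and Sdha lower.
These counts depend on the scaling. TMM scaling, which sets the bulk of genes equal between libraries, brought the median of all genes to between -0.04 and 0.04. HSW against NW then had 48 members higher and 0 lower in alveolar macrophages (17.3% and 14.7% of all genes), 55 and 0 in AT2 cells (24.2% and 14.4%), and 34 and 2 in vascular endothelial cells (31.5% and 27.2%). HSK against NK had 61 and 2 (22.2% and 20.7%), 67 and 0 (29.9% and 22.3%), and 57 and 1 (31.3% and 30.2%). Sdha stayed below 0 on that scale, at -0.38, -0.27 and -0.42 (log2) in HSK against NK and -0.25, -0.07 and -0.66 in HSW against NW. Atp5a1 was at -0.15, -0.07 and -0.17, and -0.02, -0.02 and -0.46. Ndufs1 turned to 0.09 in HSW against NW in alveolar macrophages and to 0.01 in HSK against NK in vascular endothelial cells.

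**Figure D3:**
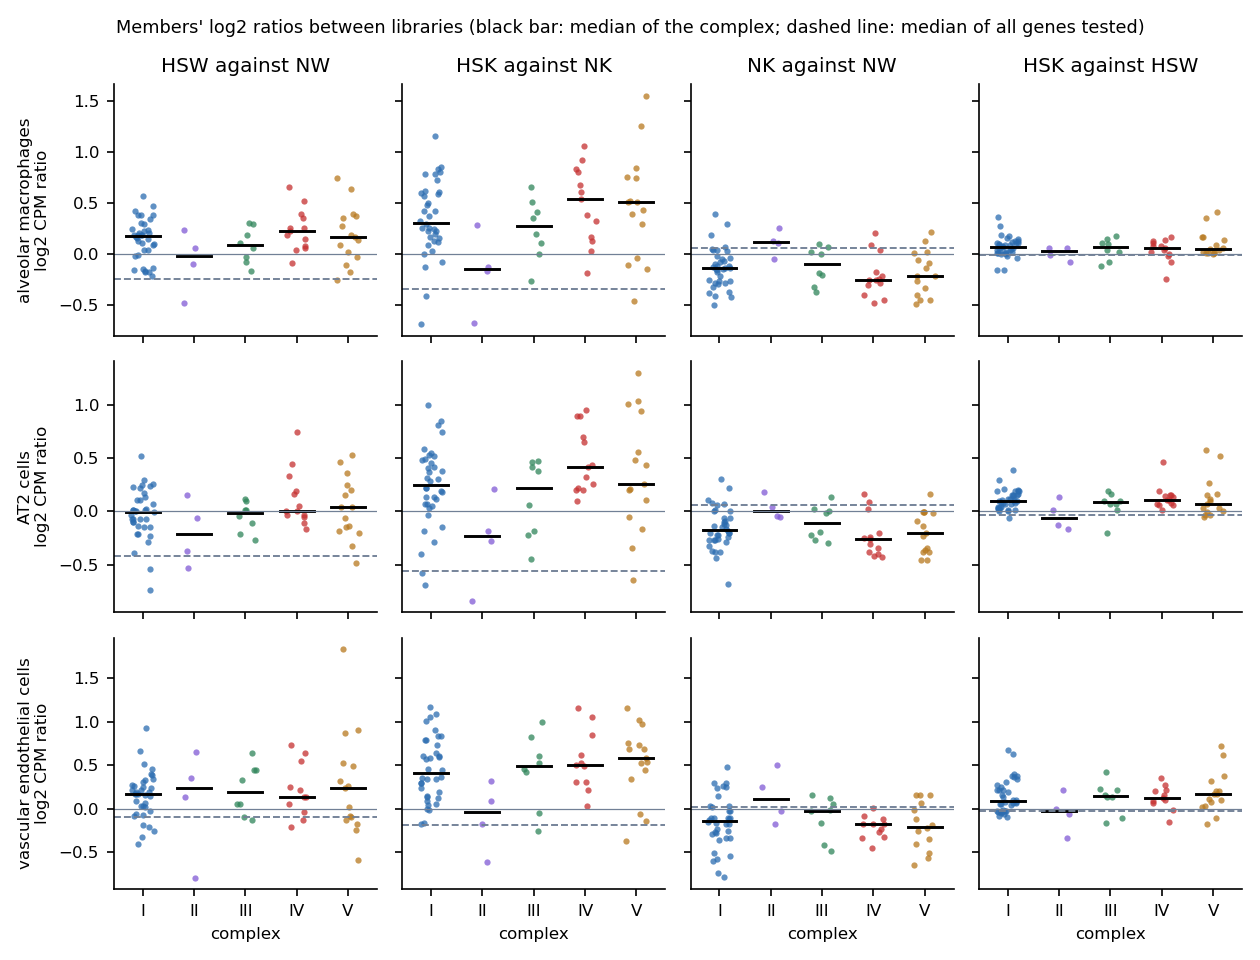
Log2 CPM ratio of each tested member (points) by complex, for 4 pairs of libraries (columns) in 3 classes (rows); black bars are medians of a complex and dashed lines medians of all genes tested. In HSK against NK, complexes IV and V have medians of 0.54 and 0.51 in alveolar macrophages and complex II -0.15.

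Medians differed between the complexes. In HSK against NK the median log2 ratio in alveolar macrophages was 0.54 for complex IV, 0.51 for complex V, 0.31 for complex I, 0.27 for complex III and -0.15 for complex II. In AT2 cells it was 0.42, 0.26, 0.25, 0.22 and -0.23, and in vascular endothelial cells 0.50, 0.58, 0.40, 0.49 and -0.04. Complex II, with 4 genes, was the only complex with a median below 0 in these 3 comparisons on the CPM scale. Under TMM its medians were 0.16, 0.34 and 0.15, the lowest of the 5 complexes in each class. Neither scale accounts for transcript length. Sdhb, Sdhd, Sdha and Sdhc have transcripts of 1142, 1231, 2900 and 3171 nt, against a median of 714 nt over members. Other genes from 1000 to under 2000 nt had CPM medians of -0.16, -0.28 and 0.10 in the 3 classes. Those from 2000 to under 4000 nt had -0.41, -0.66 and -0.30. The part of length in the low medians of complex II was not tested. Within complex II, Sdhb was at 164, 158, 194 and 192 CPM in NW, NK, HSW and HSK in alveolar macrophages, while Sdha was at 187, 224, 134 and 139.

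Knockout and wild type were compared in each condition. In normoxia (NK against NW), alveolar macrophages had 1 member higher and 14 lower of 76 (12.6% and 6.89% of all genes), AT2 cells 0 and 16 (13.5% and 6.48%), and vascular endothelial cells 2 and 18 of 73 (27.5% and 23.4%). Member medians were -0.15, -0.19 and -0.16, against 0.06, 0.06 and 0.02 for all genes. Under TMM the counts were 1 and 24 (8.42% and 10.3% of all genes), 0 and 26 (7.94% and 10.1%), and 2 and 19 (25.5% and 25.2%). Ndufs5 was lowest in alveolar macrophages (41.4 against 58.7 CPM) and in AT2 cells (36.5 against 58.6). Ndufs8 was lowest in vascular endothelial cells (87.8 against 150.2 CPM, 0.584-fold, 0.392 to 0.873). In alveolar macrophages Ndufs1 was highest, at 1.31-fold, and Sdha was at 1.20-fold.
Under HySu (HSK against HSW) the medians were 0.06, 0.10 and 0.11, against -0.01, -0.03 and -0.03. The counts were 3 higher and 0 lower in alveolar macrophages (5.84% and 5.82% of all genes), 4 and 0 in AT2 cells (4.58% and 6.53%), and 12 and 1 in vascular endothelial cells (16.7% and 21.9%). Atp5g2 was highest in alveolar macrophages (79.5 against 60.0 CPM) and AT2 cells (41.3 against 27.9), and Atp5l, the g subunit of the ATP synthase, was highest in vascular endothelial cells (1.65-fold, 1.20 to 2.26). The lowest were Cox7a2l in alveolar macrophages (223 against 263) and Uqcrc2 in AT2 cells (60.6 against 69.8).

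**Figure D4:**
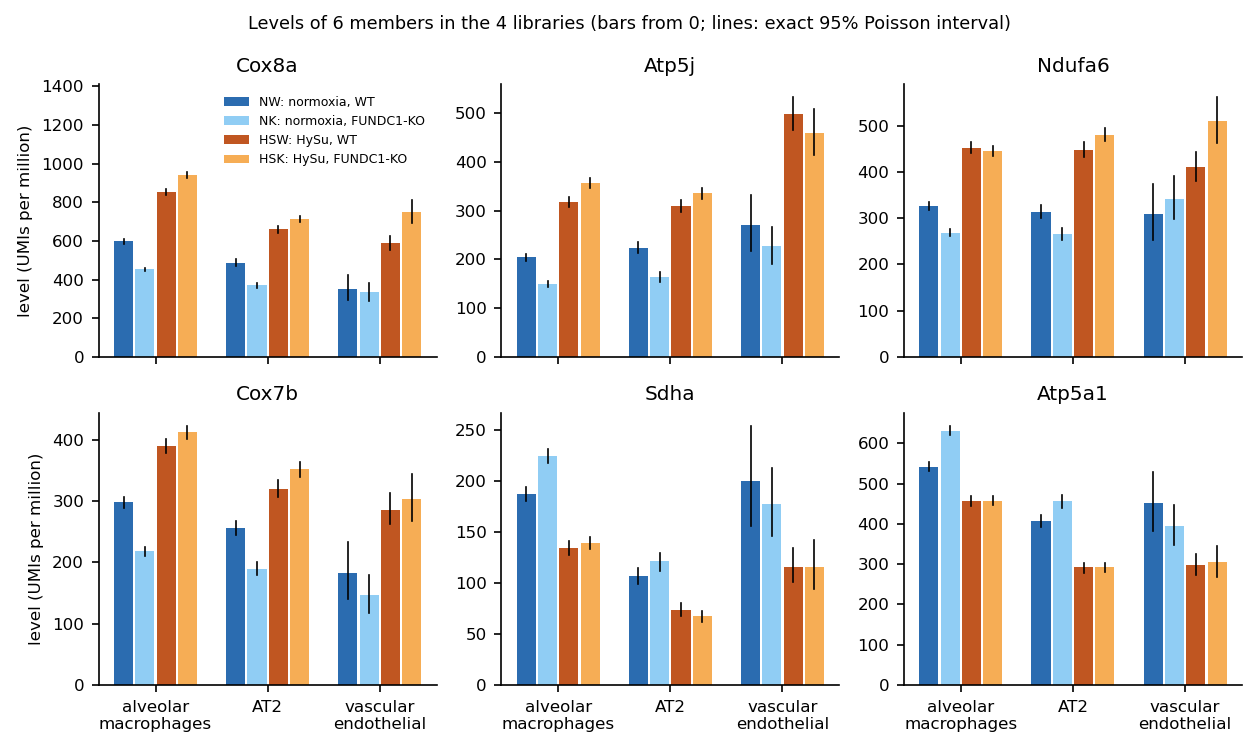
Levels of 6 members (CPM, linear axis from 0) in 3 classes; bars are libraries and lines exact 95% Poisson intervals. For Cox8a, Atp5j, Ndufa6 and Cox7b the HySu bars stand above the normoxia bars in each class, and for Sdha and Atp5a1 below.

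On the CPM scale, the separation of HySu from normoxia held for some members in every larger class. Of 74 members with at least 30 UMIs in each of the 11 classes, 33 (44.6%) lay higher in both HySu libraries than in both normoxia libraries in 9 or more classes, against 7.54% of 3450 genes. In 9 or more classes 2 members (2.70%) lay lower in both HySu libraries, against 27.6% of genes. In all 11 classes the higher set was Ndufa6, Ndufa7 and Ndufa13 of complex I, Uqcr10 and Uqcrb of complex III, Cox7a2, Cox7b and Cox8a of complex IV, and Atp5d, Atp5e and Atp5j of complex V. Cox8a was at 597, 452, 854 and 943 CPM (NW, NK, HSW, HSK) in alveolar macrophages, 657, 474, 958 and 1157 in classical monocytes, and 464, 485, 893 and 834 in ciliated cells. Atp5j was at 294, 225, 559 and 757 CPM in T and NK cells and 277, 257, 564 and 592 in alveolar fibroblasts. Sdha was lower in both HySu libraries in all 11 classes, for example at 111, 115, 61.9 and 73.1 CPM in classical monocytes and 113, 180.2, 65.8 and 66.9 in alveolar fibroblasts. Atp5a1 was so in 10 and Ndufs1 in 7.

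Transcript length moved with these ratios. The members are short, with a median of 714 nt (shortest principal transcript of GENCODE vM21) against 2771 nt for 12954 other genes with at least 200 UMIs, and 57 of the 83 are under 1000 nt. In HSK against NK in alveolar macrophages, other genes of under 500 nt had a median log2 ratio of 0.38, those from 500 to under 1000 nt 0.31, from 1000 to under 2000 nt -0.16, from 2000 to under 4000 nt -0.41 and longer ones -0.49. Members in the first 4 ranges had medians of 0.57, 0.43, 0.10 and -0.46. In AT2 cells the other genes from 500 to under 1000 nt were at 0.18 and the members at 0.31, and in vascular endothelial cells both were at 0.52. Sdha (2900 nt), Ndufs1 (2590 nt) and Atp5a1 (2471 nt) are among the 5 members of 2000 nt or more. The others, Sdhc (3171 nt) and Ndufa10 (2020 nt), had log2 ratios for HSK against NK of -0.13, -0.18 and -0.17, and of -0.08, 0.12 and 0.00, in alveolar macrophages, AT2 cells and vascular endothelial cells. Of 462 other genes under 1000 nt, 31.8% were higher in both HySu libraries in 9 or more classes and 1.30% lower, against 26 (53.1%) and 0 of the 49 such members under 1000 nt.
Over members, Pearson's r of log2 ratio with log length was -0.61 in alveolar macrophages, -0.61 in AT2 cells and -0.59 in vascular endothelial cells for HSK against NK (76, 76 and 74 genes), and over other genes -0.47, -0.57 and -0.39. Genes are not independent replicates, and they share the libraries.

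**Figure D5:**
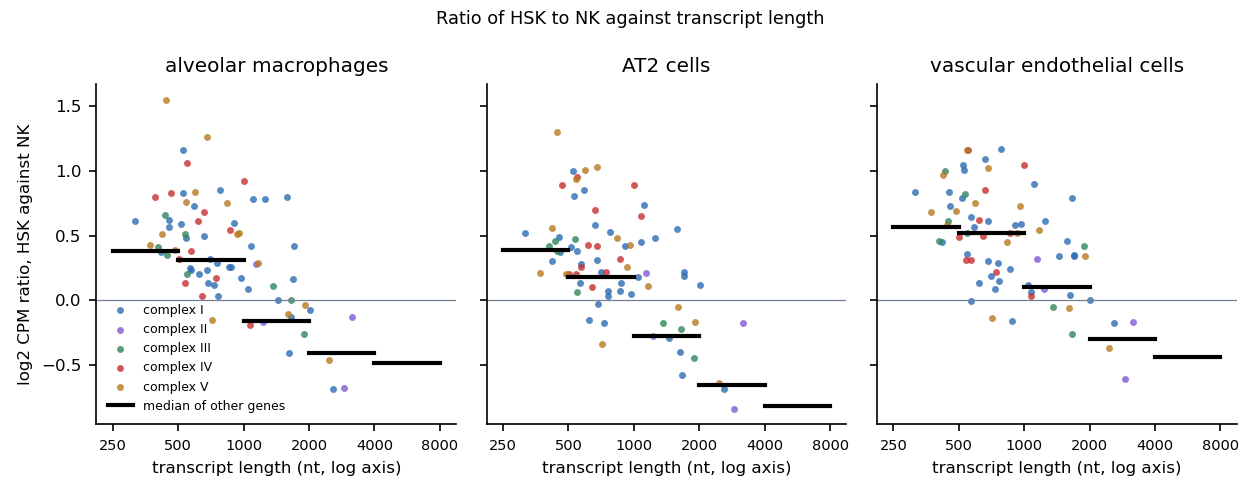
Log2 CPM ratio of HSK to NK for each member (points, coloured by complex) against transcript length in nucleotides (log axis), with black bars for the median of other genes in each length range. Most short members lie above 0 and Sdha, Ndufs1 and Atp5a1 below in alveolar macrophages and AT2 cells, as the other genes of their length do.

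After subtraction of the median of other genes of like length, the members' median log2 ratio for HSK against NK was 0.18 in alveolar macrophages, 0.12 in AT2 cells and 0.08 in vascular endothelial cells. For HSW against NW it was 0.07, 0.04 and -0.02, for NK against NW -0.03, -0.06 and 0.02, and for HSK against HSW 0.04, 0.04 and 0.05. Members past the same threshold on this scale in HSK against NK numbered 22 higher and 1 lower in alveolar macrophages (17.9% and 15.6% of all genes with a length), 25 and 2 in AT2 cells (20.8% and 18.4%), and 16 and 8 in vascular endothelial cells (27.9% and 27.7%). For HSW against NW they numbered 15 and 1 (12.9% and 13.2%), 13 and 2 (16.0% and 14.3%), and 11 and 12 (28.0% and 28.2%). The excess of higher over lower members seen in vascular endothelial cells on the CPM scale was thus gone in HSW against NW. For NK against NW the counts were 0 and 6 (7.72% and 8.09%), 0 and 5 (8.05% and 7.52%), and 8 and 9 (25.4% and 24.5%), and for HSK against HSW 3 and 0 (6.28% and 4.78%), 3 and 0 (5.01% and 4.25%), and 5 and 0 (18.5% and 18.8%). Cox7b had log2 ratios of 0.92, 0.89 and 1.05, where other genes of its length range had -0.16, -0.28 and 0.10, which places it among the 3 highest in each class. At 1001 nt it lies at the lower edge of that range, and against the range below, whose median in alveolar macrophages is 0.31 and not -0.16, its excess would be smaller. Ndufa12, an accessory subunit near the end of the complex I matrix arm, was 1.02 above in AT2 cells and 0.80 in vascular endothelial cells. Atp5g2 had 1.55 against 0.38 in alveolar macrophages. Atp5g3 was lowest or next to lowest in each class, at -0.46, -0.51 and -0.66, and Sdha lay at -0.27, -0.18 and -0.31. Atp5a1 came to -0.05, 0.02 and -0.06, near the genes of its length.

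Cell clusters within the classes also differed between treatments. Of alveolar macrophages, the largest cluster held 69.5% in NW and NK but 43.0% in HSW and 34.1% in HSK, and another held 12.5%, 11.1%, 47.5% and 52.1%. Summed levels kept the order of libraries within them, at 23644, 21399, 25486 and 26340 CPM in the first and 26594, 25334, 27518 and 28654 in the second. In AT2 cells the first cluster, with 82.5%, 86.1%, 23.9% and 14.1% of the class, had 18684, 16627, 18037 and 19646 CPM, so that HSW lay below NW there. The second had 19377, 17218, 19497 and 20706. Of the vascular endothelial clusters, 2 held almost only normoxia cells and 3 almost only HySu cells. The largest of those shared by all libraries, with 18, 27, 30 and 18 cells, had 21152, 18891, 24590 and 25618 CPM. Among classical monocytes, 2 clusters held 38.2% and 36.2% of the class in NW, 59.0% and 35.9% in NK, 6.04% and 3.43% in HSW and 5.19% and 4.25% in HSK. Another 2 held 13.1% and 10.1%, 1.26% and 3.27%, 45.8% and 41.0%, and 52.4% and 34.4%. Of T and NK cells, a cluster led in part by the cycling genes Ube2c, Birc5 and Top2a held 29.6%, 35.6%, 43.2% and 71.4%, the last being 30 of 42 cells. The dendritic cells were split as well. One cDC2 cluster held 53, 40, 42 and 9 cells and the other 1, 0, 28 and 38, and a cDC1 cluster held 47, 58, 4 and 1. The part of these splits in the values of classical monocytes, T and NK cells, cDC1 and cDC2 was not tested.
Other values moved with the libraries too. The 6 club cell markers summed to 1477, 1516, 2756 and 4738 CPM in alveolar macrophages, 3196, 3165, 6022 and 8681 in AT2 cells, and 1714, 1845, 2662 and 5896 in vascular endothelial cells, with all 6 detected in every library. The 6 cycling markers summed to 20.6, 35.1, 213 and 534 CPM in vascular endothelial cells. The part of both lists in the ratios was not tested.

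Genes that serve the same complexes from outside the rule were taken from pathway lists. Among 18 regulators of mitochondrial biogenesis and hypoxia, 16 were tested in alveolar macrophages for HSK against NK, with 1 higher, 9 lower and a median log2 ratio of -0.42, where all genes had 9.75% higher, 52.3% lower and a median of -0.34. In AT2 cells 10 were tested, with 1 higher, 7 lower and a median of -0.54, where all genes had 9.38%, 66.0% and -0.56. In both classes the list thus lay near all genes. Lonp1, the matrix protease, was at 46.0, 49.2, 37.9 and 32.1 CPM in alveolar macrophages. Ppargc1a, the coactivator PGC-1alpha, was at 7.51, 8.83, 3.68 and 4.95 CPM in AT2 cells, on 51, 58, 26 and 46 UMIs. Cycs, cytochrome c itself, was at 144, 113, 151 and 186 CPM in alveolar macrophages, and Cyc1, a haem-bearing subunit of complex III, at 111, 112, 119 and 121.
Complex IV assembly factors had 7 higher and 5 lower of 17 in the same comparison, and complex I assembly factors 1 and 4 of 14, beside the same 9.75% and 52.3% of all genes. Of the 13 mitochondrially encoded protein genes, 7 were tested. Their median log2 ratio for HSK against NK was 1.01 in alveolar macrophages, 0.96 in AT2 cells and 1.29 in vascular endothelial cells, with 6 of 7 higher and 1 lower in each class. Of all genes 9.75%, 9.38% and 23.3% were higher and 52.3%, 66.0% and 41.3% lower. For NK against NW the median of the 7 was -0.73, -0.49 and -0.40, with 6 of 7 lower, where 6.89%, 6.48% and 23.4% of all genes were lower.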

How the data were processed

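Lung cells were captured on a microwell chip and sequenced, per the labels' protocols. The deposited matrices hold whole-number UMI counts per gene and cell, which the authors made with cutadapt 1.17, STAR 2.6.1a, featureCounts 2.0.1 and Scanpy on GRCm38 (mm10), per the submitters' processing notes. The settings, the annotation and the use of strand are not given in the sources used here.

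Cells with under 200 genes or over 20% mitochondrial UMIs were removed (2 cells). Scrublet, through scanpy 1.11.5, called 43 cells in all and was judged not to have worked. Cells with at least 3 UMIs and 15% of the reference level of a second lineage's markers were removed as mixed instead. Clustering used 2000 genes, 40 components, 20 neighbours and Leiden (leidenalg 0.10.2) at resolution 1, without the 83 genes or mitochondrially encoded genes. Counts were summed per class and library and given as CPM. Ratios had 0.5 UMI added and needed 200 UMIs over the pair (30 in vascular endothelial cells). Printed intervals are exact Poisson, conditional binomial or Clopper-Pearson at 95%. TMM factors came from edgeR 4.0.16, and scipy 1.17.1 and Python 3.11.15 were used.

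The members and lists were chosen with earlier results of these data known. Named are the tissue isoforms, the highest and lowest member of each complex, the leading 3 members of a class, the 3 highest and 3 lowest ratios of each pair, 6 pathway genes and Fundc1, of which those the results turn on are printed. The ratio computation was tested on simulated data.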

Additional observations from a re-analysis of the deposited data

Results flagged for a closer look

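The members' median log2 ratio of FUNDC1-KO to wild type had opposite signs in normoxia and under HySu in the 3 classes compared. It was -0.15 in normoxia and 0.06 under HySu in alveolar macrophages, -0.19 and 0.10 in AT2 cells, and -0.16 and 0.11 in vascular endothelial cells. Each value compares 1 library with 1 other, so the difference was not tested. After subtraction of the median of other genes of like transcript length, the values were -0.03 and 0.04, -0.06 and 0.04, and 0.02 and 0.05.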

How the results depend on the processing

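No paired analysis was possible because each group has 1 library. Each median over members was given an interval that runs between ranked member ratios on either side of it. That interval reflects the spread between genes, not counting error or variation between mice, and served only to sort the alternatives. With 1 UMI added, a minimum of 20 UMIs or none, members among the clustering genes, or only cells above 4726 UMIs, all 12 medians stayed within it. The isoform shares stayed within their counting intervals with only Scrublet calls removed.

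TMM scaling gave members' medians of 0.40 (HSW against NW) and 0.67 (HSK against NK) in alveolar macrophages, 0.45, -0.27 (NK against NW), 0.14 (HSK against HSW) and 0.83 in AT2 cells, and 0.30 and 0.67 in vascular endothelial cells. CPM without mitochondrial, ribosomal protein and haemoglobin genes gave 0.06 for HSW against NW in AT2 cells. In vascular endothelial cells, thinning to 3182 UMIs gave 0.19 for HSK against HSW, and a mean over cells -0.10 for NK against NW.

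The alternatives in this paragraph, and the split of calls by direction under TMM, were chosen after seeing the data. Less the median of genes of like length, the medians were 0.07, -0.03 and 0.18 in alveolar macrophages (HSW against NW, NK against NW, HSK against NK) and 0.04, -0.06, 0.04 and 0.12 in AT2 cells (with HSK against HSW before the last). In vascular endothelial cells HSW against NW reversed to -0.02 and NK against NW to 0.02, with 0.05 and 0.08 for HSK against HSW and NK. With the median transcript these were 0.06, -0.06 and 0.14, then -0.08, 0.03 and 0.18 (without HSW against NW), then -0.04, 0.03, 0.05 and 0.04. Cluster 5 of alveolar macrophages alone gave 0.03 (HSW against NW) and 0.16 (HSK against NK), cluster 2 of AT2 cells -0.08 and 0.17, and cluster 3 of AT2 cells 0.18 for HSK against NK.

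Members past 1.5-fold, listed as HSW against NW, NK against NW, HSK against HSW and HSK against NK, numbered 3, 0, 0 and 25 in alveolar macrophages, 2, 1, 0 and 16 in AT2 cells, and 11, 4, 4 and 29 in vascular endothelial cells. Of these 3, 0, 0 and 23 were higher in alveolar macrophages, 1, 0, 0 and 13 in AT2 cells, and 9, 0, 4 and 28 in vascular endothelial cells. Of all genes 1.78%, 2.46%, 1.57% and 4.56% were so much higher and 12.7%, 1.49%, 0.811% and 24.9% lower in alveolar macrophages. In AT2 cells these were 1.91%, 2.22%, 0.616% and 4.56% higher and 32.3%, 0.937%, 0.581% and 48.3% lower, and in vascular endothelial cells 14.0%, 13.7%, 6.64% and 13.5% higher and 20.4%, 11.4% and 26.2% (without HSK against HSW) lower. Past the main threshold after length centring, members numbered 6 (NK against NW, all lower) and 23 (HSK against NK, 22 higher) in alveolar macrophages, 5 (all lower) and 27 (25 higher) in AT2 cells, and 5 (HSK against HSW, all higher) and 24 (HSK against NK, 16 higher) in vascular endothelial cells. There HSW against NW had 11 higher and 12 lower, against 23 and 3 on the CPM scale. The range between classes was 1.69-fold with only Scrublet calls removed and 1.80-fold without mitochondrial, ribosomal protein and haemoglobin genes. T and NK cells were then the highest class, at 29099 CPM (over 10 classes, without ciliated cells) and 35154 CPM. The cause of these shifts was not tested.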
